A study of Macaca mulatta with 304 samples.

Results

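The Fc receptor-like (FCRL) family was followed in whole blood of rhesus macaques before and after irradiation of the thorax. Its members were taken by symbol from the deposited gene count table: FCRLA, FCRLB, FCRL1, FCRL2, FCRL3 and FCRL5, which are 6 of its 21070 genes. Of these 6, 5 were counted 3 times or more in 80% or more of the samples and could be tested together with 13751 genes in all. FCRLB did not reach that level and is given as pooled levels and counts.

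The animals were 28 healthy adult macaques of the Chinese substrain, and all of them were irradiated. A dose of 9.8 Gy (LD) was given to 12 animals (6 females, 6 males), and 10.7 Gy (HD) to 16 (8 females, 8 males). The control of an animal was its own blood at Day -2, before irradiation. It was present for 24 animals, 12 LD and 12 HD, and every later sample came from an irradiated animal. Blood was then drawn from Day 3 to Day 270, and the days were grouped as early (Day 3 to 21), medium (after Day 21 to Day 90) and late (after Day 90). The late window held 53 samples of 16 animals (12 LD, 4 HD), since fewer animals were drawn on later days. Some draws fell between the scheduled days, each the last of its animal. They lay at Days 71 and 77 (medium) and at Days 94, 102, 127, 129, 160 and 172 (late). The methods describe such draws as final samples of animals euthanized with signs of severe radiation syndrome. For B2504 (Day 94) and B1504 (Day 102) this was the only late sample. Later samples come from animals still followed, and the part of this selection was not tested. According to the methods, all animals received analgesics over a fixed span after irradiation. The draws of Days 6, 9, 15 and 21 fall within that span, and those of Day -2 and Day 3 before it. The analgesics thus cannot be told apart from the days themselves. Dexamethasone, a glucocorticoid, was given to animals with rapid breathing, and the labels do not tell which samples followed it. The part of these drugs in any value below was not tested.

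FCRL proteins are relatives of the classical receptors for the constant part of antibodies, and in blood most of them sit on B cells. FCRL1 carries an activating motif in its cytoplasmic tail and strengthens signals from the B cell receptor. FCRL2, FCRL3 and FCRL5 carry ITIMs, tyrosine motifs that recruit phosphatases and dampen that receptor. FCRL5 binds IgG, and FCRL3 is known also from T cell subsets in humans. FCRLA and FCRLB have no membrane anchor and stay inside the cell, where FCRLA binds immunoglobulin. Because whole blood was sequenced, fewer B cells in the blood and less RNA per B cell cannot be told apart in any value given here.

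In the Mmul_10 assembly, the build used by the authors, the members lie in a pair of clusters on chromosome 1. FCRLB (chr1:89267511-89274139, minus strand) and FCRLA (chr1:89281207-89288914, minus strand) are neighbours separated by 7067 bases. FCRL1 (chr1:93171011-93196513, plus strand), FCRL2 (chr1:93212631-93243025, plus strand), FCRL3 (chr1:93290912-93314478, plus strand) and FCRL5 (chr1:93436119-93473131, plus strand) lie within 302121 bases, with 3882096 bases between FCRLA and FCRL1. No stretch of 75 bases in the members' RefSeq transcripts was shared with a transcript of another gene. FCRL3 overlaps LOC106992998, on the other strand, by 469 exonic bases, and the sources used here do not state whether reads were counted by strand.

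The 250 bases upstream of the annotated start are given for 4 members, because FCRLA, FCRL1 and FCRL5 had the highest levels per kb and FCRLB the lowest. They were read from the Mmul_10 genome at the RefSeq starts and are written 5′ to 3′ on the strand of the gene. The windows are chr1:89288915-89289164 for FCRLA and chr1:89274140-89274389 for FCRLB (minus strand), and chr1:93170761-93171010 for FCRL1 and chr1:93435869-93436118 for FCRL5 (plus strand). Capitals mark the matches to the motifs searched.
FCRLA: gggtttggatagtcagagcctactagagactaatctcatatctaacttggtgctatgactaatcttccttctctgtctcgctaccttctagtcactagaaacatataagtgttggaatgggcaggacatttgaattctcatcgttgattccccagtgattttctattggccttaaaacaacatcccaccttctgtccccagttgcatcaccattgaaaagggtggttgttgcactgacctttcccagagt
FCRLB: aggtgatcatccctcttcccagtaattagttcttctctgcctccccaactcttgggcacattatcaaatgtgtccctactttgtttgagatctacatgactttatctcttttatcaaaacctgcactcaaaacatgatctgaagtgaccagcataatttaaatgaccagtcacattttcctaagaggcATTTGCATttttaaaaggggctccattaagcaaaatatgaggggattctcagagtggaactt
FCRL1: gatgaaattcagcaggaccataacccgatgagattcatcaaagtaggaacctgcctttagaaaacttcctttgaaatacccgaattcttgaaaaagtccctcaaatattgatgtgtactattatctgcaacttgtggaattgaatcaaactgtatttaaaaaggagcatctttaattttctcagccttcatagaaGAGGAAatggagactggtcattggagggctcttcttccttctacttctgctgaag
FCRL5: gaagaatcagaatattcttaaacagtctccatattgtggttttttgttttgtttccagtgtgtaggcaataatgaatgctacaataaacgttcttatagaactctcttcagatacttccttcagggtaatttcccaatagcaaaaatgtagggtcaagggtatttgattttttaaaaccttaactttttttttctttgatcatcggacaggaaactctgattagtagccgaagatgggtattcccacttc

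Motifs of factors active in B cells were searched on both strands. The octamer of the Oct factors (ATGCAAAT) had 1 match, in FCRLB, on the minus strand and printed as ATTTGCAT, from 62 to 55 bases before the start. It was present in 1.55% of all 21055 promoters of this length. A PU.1 core (GAGGAA) had 1 match, in FCRL1, from 55 to 50 bases before the start, against 21.8% of all promoters. The EBF1 letters (CCCNNGGG) matched none of the 6 members and 15.6% of all promoters. The members' upstream sequences shared a low GC content, with a median of 38.6% (30.8% to 43.2%) against 57.2% over all promoters. Each held 0 to 3 CpG dinucleotides, and so few were found in 23.4% of all promoters and in 62.5% of those of the 8 pan-B marker genes used below for comparison.

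At Day -2 the members differed widely in level. Expressed per kb of exon so that genes can be compared, FCRL1 had a lowest, median and highest level of 7.17, 30.6 and 82.01 CPM per kb over 24 animals, where CPM are counts scaled to a common library size after upper quartile scaling. The levels were 5.28, 17.7 and 35.5 CPM per kb for FCRLA and 5.82, 15.8 and 37.4 CPM per kb for FCRL5. They were 1.45, 8.08 and 18.8 CPM per kb for FCRL2 and 1.75, 3.89 and 6.87 CPM per kb for FCRL3. FCRLB was nearly silent, at 0, 0.111 and 0.742 CPM per kb. On the same scale MS4A1, which encodes the B cell surface protein CD20, had a median of 70.3 CPM per kb, and CD22, an inhibitory lectin of B cells, 25.9 CPM per kb. Within the animals the order was mostly kept. FCRL1 exceeded FCRLA in 23 of 24 animals, FCRL5 exceeded FCRL2 in 23, and FCRL2 exceeded FCRL3 in 23 (permutation tests of the paired log2 levels, two-sided, p = 2e-05 for each, the smallest that 100000 resamples can give, and adjusted p = 2.5e-05 over 5 neighbours). FCRLA and FCRL5 were the closest neighbours, with FCRLA higher in 15 of 24 animals by a mean of 0.29 (SD 0.42) on the log2 scale (permutation test, adjusted p = 0.00206). Their order rests on the exon lengths, 2371 bases for FCRLA and 5392 for FCRL5. Before that division FCRL5 had the higher median, 85.3 against 42.1 CPM. The neighbours follow the order of the medians in these same animals, so the p-values do not test that order independently.

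**Figure D1:**
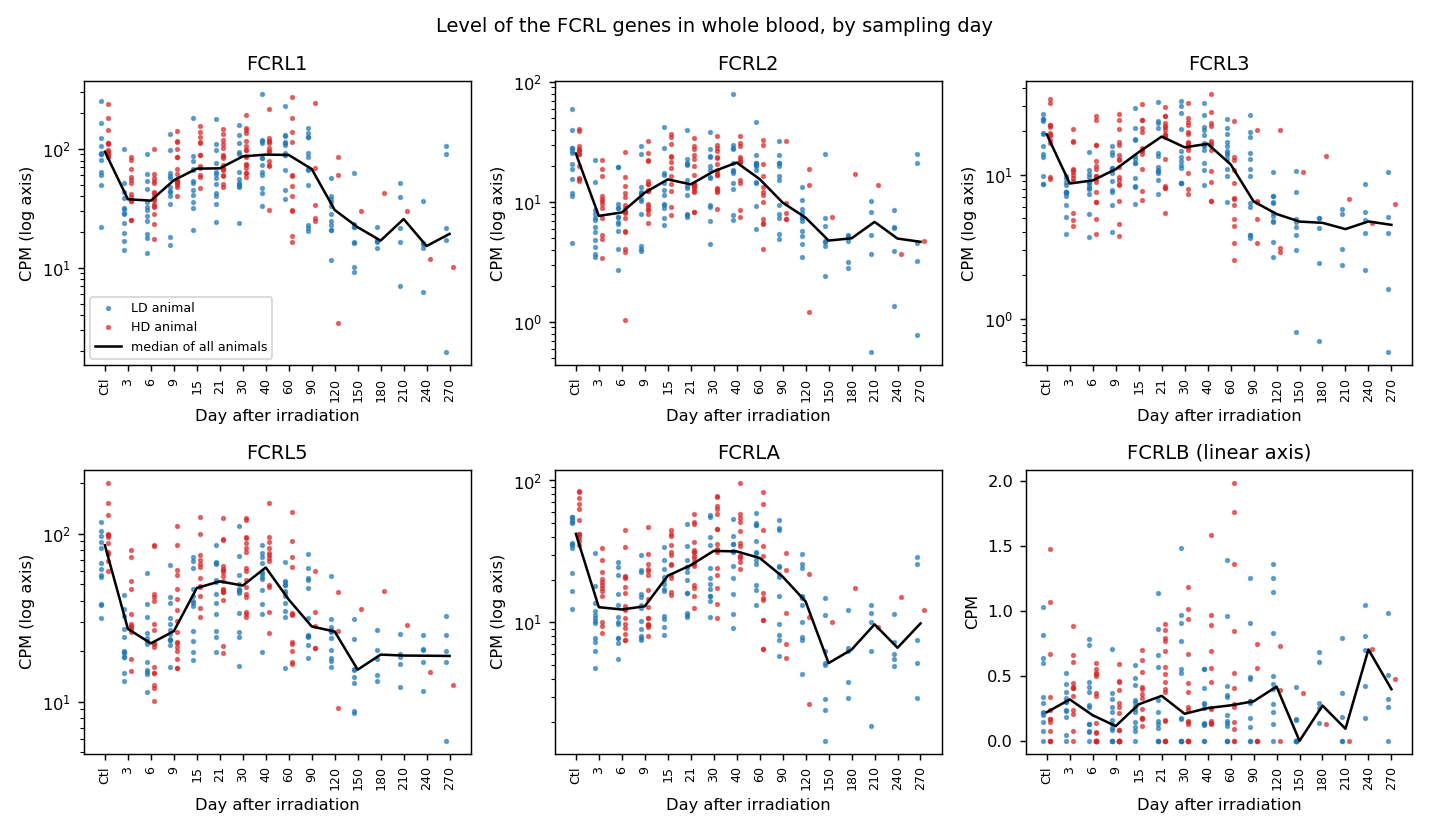
Level of each member (CPM, counts scaled to a common library size) in the samples of the scheduled days. Ctl stands for Day -2, and the axes are log except for FCRLB, whose axis is linear. Samples taken between the scheduled days, at Days 71, 77, 94, 102, 127, 129, 160 and 172, are not shown. Blue points are LD samples, red points HD samples, and the black line joins the medians, while 1 FCRL2 sample at Day 150 and 1 FCRL3 sample at Day 210 with a count of 0 cannot be drawn on the log axes. The medians of FCRLA, FCRL1, FCRL2, FCRL3 and FCRL5 drop by Day 3, come back towards the control by Day 40 and drop again from Day 60 to Day 150.

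Some properties of the libraries touch these results. Total counts ran from 2840219 to 23638161 per sample (median 8227563), and the medians were 11697185.5 in the control, 11789708.5 in the early, 6905391 in the medium and 6935207 in the late window. The library names in the labels fall into 3 numbering series, called A, B and C here. Series A held 20 of the 24 controls and 100 early samples, but none of the medium and late samples, which belong to series B and C. What the series stand for is not stated, so the medium and late windows were compared with most controls across a change of series. The 8 pan-B markers checked the B cell content of the blood, among them MS4A1, CD79A, CD79B, CD22, PAX5, BLK and BANK1. Their summed level had a median of 1499.7 (359 to 2628) CPM in the control, 616 (267 to 1541) in the early, 1044 (348 to 1949) in the medium and 342 (65.01 to 599) in the late window. No library was at 0 for their sum. The summed level of 8 erythroid markers moved at the same time, from 6258 (1587 to 11356) CPM in the control to 17737 (6710.3 to 37784) in the early window, 9407 (3158 to 104067) in the medium and 7179.8 (1545 to 22704) in the late window, and its part in the members' values was not tested.

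In the early window the tested members were all lower than in the same animals' control. For FCRLA the lowest, median and highest levels over 24 animals were 12.7, 42.5 and 84.97 CPM in the control and 8.41, 18.8 and 45.2 CPM in the early window. Every animal was lower, although the ranges overlap between animals. The log2 fold change of FCRLA was -1.27 (SE 0.091, n = 24 animals), which corresponds to 41.4% of the control level (edgeR quasi-likelihood test, adjusted p = 7.09e-12). FCRL5 stood at 31.7, 86.2 and 203.7 CPM in the control and at 15.3, 37.1 and 100.2 CPM afterwards, again lower in 24 of 24 animals. Its log2 fold change was -1.12 (SE 0.10, n = 24 animals), or 45.99% of control (edgeR, adjusted p = 1.82e-10). FCRL1, the member with an activating tail, went from 22.5, 95.9 and 257 CPM to 18.8, 50.9 and 136.6 CPM and was lower in 24 of 24 animals. Its log2 fold change was -0.87 (SE 0.10, n = 24 animals, edgeR, adjusted p = 4.23e-08).

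FCRL2 and FCRL3, both with ITIMs, fell as well. FCRL2 had 4.61, 25.6 and 59.7 CPM in the control and 5.26, 12.4 and 30.5 CPM in the early window, and 23 of 24 animals were lower. The log2 fold change was -0.90 (SE 0.094, n = 24 animals, edgeR, adjusted p = 5.88e-09). FCRL3 had 8.64, 19.2 and 33.9 CPM in the control and 5.26, 12.4 and 24.7 CPM in the early window, with 23 of 24 animals lower. Its log2 fold change of -0.61 (SE 0.077, n = 24 animals) lay closest to the fold limit of 1.5 (edgeR, adjusted p = 2.13e-07). To be called here, a gene needed a fold of 1.5 or more together with an adjusted p no higher than 0.05. By that rule 5 of 5 tested members were called lower, against 1.75% of all tested genes. Without animal B1003 the value of FCRL3 was -0.57 and no longer passed the fold limit. Within series A alone (20 animals) the members fell by 0.62 (FCRL3) to 1.30 (FCRLA), and within series C alone (4 animals) by 0.75 (FCRL3) to 1.33 (FCRLA), with 5 of 5 called in both (background 1.56% and 6.77%).

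Day by day, the decrease was present at the first draw after irradiation. At Day 3 the medians were 12.8 CPM for FCRLA against 42.1 CPM at Day -2, 37.8 against 94.9 CPM for FCRL1, and 27.1 against 85.3 CPM for FCRL5. All 24 animals were lower for each of the 5 members. The log2 fold changes at Day 3 ran from -1.05 (SE 0.091) for FCRL3 to -1.67 (SE 0.10) for FCRLA. At Days 3, 6 and 9, 5 of 5 members were called lower, against 4.62%, 5.48% and 2.43% of all tested genes.

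The medians then rose. FCRL1 had a median of 54.6 CPM at Day 9, 68.3 at Day 15 and 86.7 at Day 30. FCRLA stood at 12.3 CPM at Day 6, 21.3 at Day 15 and 31.9 at Day 30. At Days 15 and 21, FCRLA and FCRL5 were called lower (2 of 5 members, against 0.894% and 2.73% of genes). For FCRLA these log2 fold changes were -0.99 (SE 0.088) and -0.76 (SE 0.082), and for FCRL5 -0.75 (SE 0.10) and -0.65 (SE 0.10). At Days 30 and 40, 0 of 5 members were called (background 1.33% and 2.85%). At Day 30 the members other than FCRL3 still passed the p limit, and at Day 40 FCRL5 and FCRLA did, but none passed the fold limit. The values at Day 40 ran from -0.44 (SE 0.10) for FCRL5 to -0.11 (SE 0.091) for FCRL3.

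From Day 60 members were called lower again. FCRL5 had a median of 40.6 CPM at Day 60 and 28.1 at Day 90. FCRL3 went from 16.3 CPM at Day 40 to 11.8 and 6.51 CPM on these days, while FCRL1 stood at 89.7, 89.1 and 67.9 CPM at Days 40, 60 and 90. FCRLA, FCRL2, FCRL3 and FCRL5 were called lower at Day 60 (21 animals) and at Day 90 (15 animals), against 1.92% and 3.19% of genes. FCRL1 was not called on either day, with -0.39 (SE 0.21, edgeR, adjusted p = 0.182) and -0.67 (SE 0.24, edgeR, adjusted p = 0.052). At Day 60, 1 of 5 members was called within the LD animals alone and 5 of 5 within the HD animals alone. Without the animal as a replicate block, which ignores the pairing, the counts at Days 60 and 90 were 2 of 5 each.

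From Day 120 to Day 240, 5 of 5 members were called lower on each of 5 days. The background was 19.1% at Day 120, 19.5% at Day 150, 9.86% at Day 180, 16.9% at Day 210 and 3.51% at Day 240. With TMM scaling and with DESeq2, which changes the test and the scaling together, 5 of 5 were called on these days too, although the genes called higher made up 51.7% and 55.5% of all calls at Day 120 there, against 39.95% in edgeR under upper quartile scaling. At Day 150 FCRLA had a lowest, median and highest level of 1.46, 5.17 and 14.8 CPM in 9 animals, and its log2 fold change of -2.71 (SE 0.27) was the largest of any member on any day tested. At Day 240 the largest change was that of FCRL1, -2.68 (SE 0.28, 6 animals). Leaving out animal B1003 or B1503 at Day 240 removed the call of FCRL3, whose log2 fold change was then -1.66 or -1.45 against -1.68 with all 6 animals. At Day 270 the log2 fold changes lay between -2.19 and -1.86, but the adjusted p ran from 0.075 to 0.077 in edgeR and 0 of 5 members were called (background 0.00727%, 1 gene). On that day 4060 genes had an unadjusted p under 0.05. DESeq2 called 5 of 5 members and 2344 genes, and edgeR without animal B1003 also called 5 of 5.

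**Figure D2:**
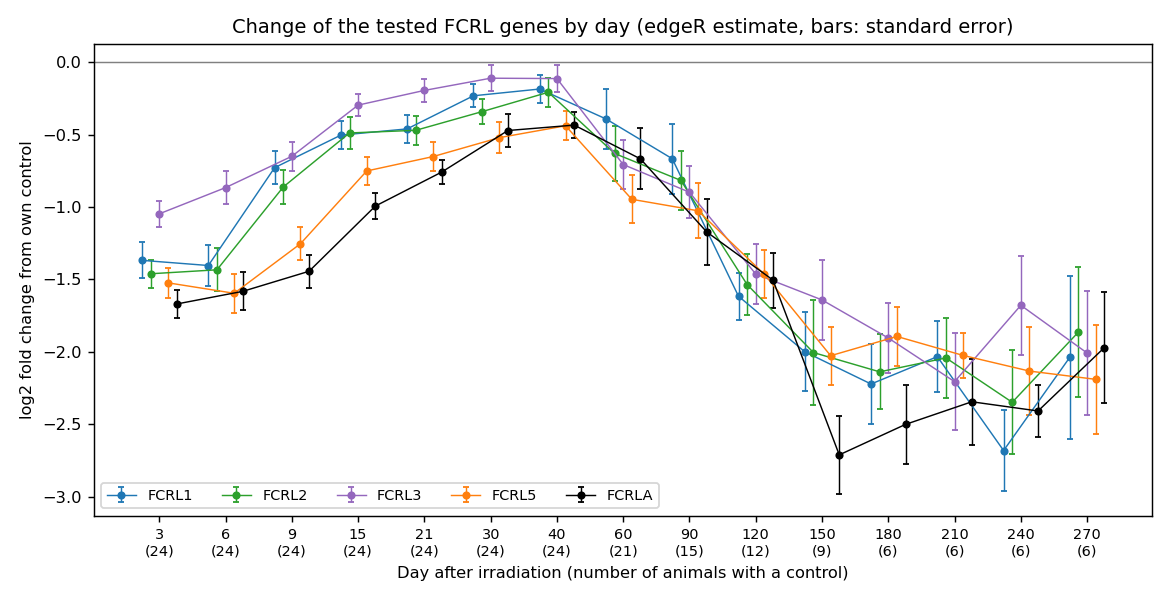
Log2 fold change of the 5 tested members against the animals' own Day -2 control at each scheduled day, from the edgeR fit. Error bars give the standard error. The lines lie between -0.87 and -1.67 at Days 3 and 6, approach 0 at Days 30 and 40 and lie between -1.46 and -2.71 from Day 120 to Day 240.

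Because the B cell markers fell at the same time, each member was set against them in the same animals. The reference was the mean log2 change of the 8 pan-B markers, which was -0.95 in the early window. FCRLA fell further than this reference in 23 of 24 animals, with a mean difference of -0.32 (SE 0.038, two-sided permutation test by sign changes, adjusted p = 0.00015 over 15 comparisons). FCRL3 fell less than the reference in 19 of 24 animals, by 0.34 (SE 0.065, permutation test, adjusted p = 0.00015). FCRL5 fell further in 18 of 24 animals, with a mean difference of -0.17 (SE 0.062, permutation test, adjusted p = 0.0332), which did not pass with the 20 animals whose control was in series A (adjusted p = 0.125). FCRL1 and FCRL2 differed from the reference by 0.09 (SE 0.047) and 0.06 (SE 0.060, permutation tests, adjusted p = 0.146 and 0.414).

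In the medium window the reference stood at -0.55. FCRL1 lay above it in 20 of 24 animals, by 0.25 (SE 0.046, permutation test, adjusted p = 0.0002), and FCRL3 in 18 of 24, by 0.18 (SE 0.058, permutation test, adjusted p = 0.0203). The differences of FCRLA, FCRL2 and FCRL5 were -0.02 (SE 0.064), 0.13 (SE 0.065) and -0.10 (SE 0.065), which did not pass. In the late window the reference was -1.95, and FCRL1 lay above it in 12 of 14 animals, by 0.18 (SE 0.061, permutation test, adjusted p = 0.0332). The other 4 tested members differed by 0.02 (FCRLA) to 0.21 (FCRL2) and did not pass. These differences depend on the marker chosen. With MS4A1 alone as the reference FCRLA differed by -0.63 in the early window, FCRL3 by 0.02 in the early window (permutation test, adjusted p = 0.856), and FCRL1 by -0.09 in the medium and the late window. The medium difference of FCRL3 turned to -0.16 against MS4A1 alone, and it was 0.08 without CD79A, CD79B and CD22 in the reference (permutation tests, adjusted p = 0.317 and 0.336).

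**Figure D3:**
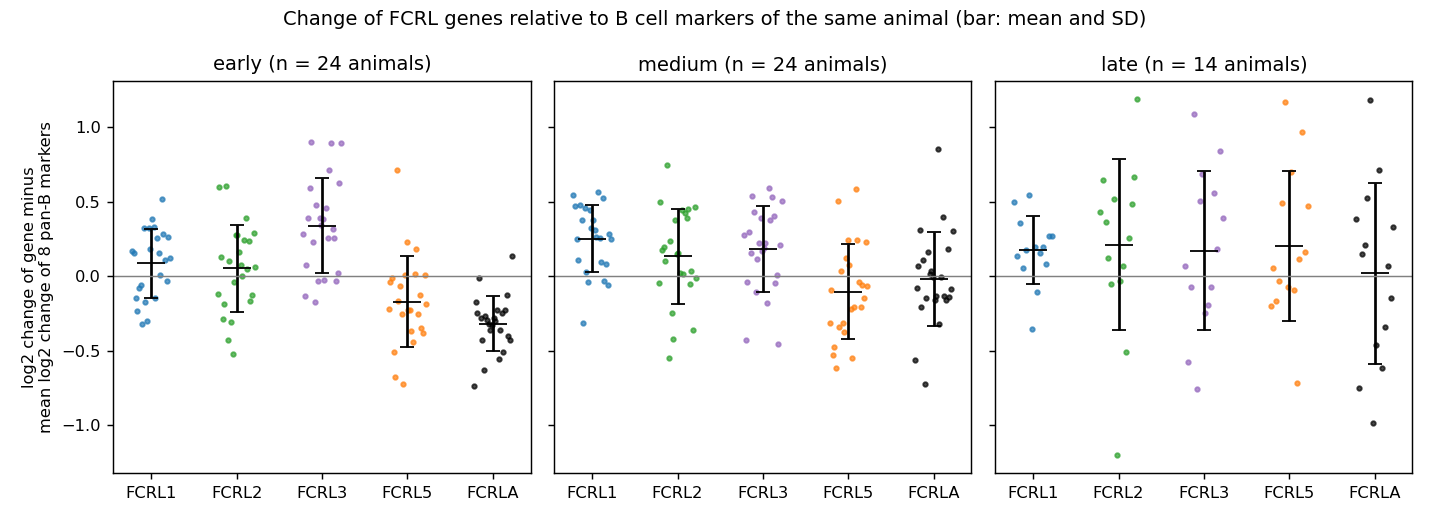
Difference between the log2 change of a member and the mean log2 change of the 8 pan-B markers, for each animal (points) with the mean (bar), in the early, medium and late windows. In the early window the points of FCRLA lie below 0 in 23 of 24 animals and those of FCRL3 above 0 in 19 of 24.

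Seen as a share, the summed level of the 5 tested members was 18.7% of the summed pan-B level in the control (median of 24 animals, 14.99% to 25.6%). It was 18.9% in the early, 20.7% in the medium and 23.5% in the late window (16.8% to 32.9%). The ranges of the windows overlap, and the shares were not tested.

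Over the medium window as a whole, the members lay between the early level and the control. FCRL5 had a lowest, median and highest level of 17.6, 56.3 and 103.3 CPM, and 22 of 24 animals were below their control. Its log2 fold change of -0.65 (SE 0.10, n = 24 animals) was called (edgeR, adjusted p = 7.24e-06). FCRLA stood at 10.05, 32.3 and 57.6 CPM, with 22 of 24 animals lower, and -0.57 (SE 0.089, n = 24 animals) just missed the fold limit (edgeR, adjusted p = 1.06e-05). FCRL1 reached 30.3, 80.6 and 190.3 CPM and was lower in 18 of 24 animals, with -0.30 (SE 0.075, n = 24 animals). FCRL2 and FCRL3 had log2 fold changes of -0.42 (SE 0.088, n = 24 animals) and -0.37 (SE 0.077, n = 24 animals). All 5 passed the p limit and 1 of 5 was called lower, against 1.27% of genes. The call changed with the animals and libraries used. In the 4 animals whose control came from the same series as their medium samples the log2 fold changes were -0.19 (FCRLA) to -0.48 (FCRL3) and 0 of 5 were called (adjusted p = 0.165 to 0.453 in edgeR). These 4 animals, B2003, B2005, B2503 and B2504, were all HD. B2005 and B2503 were last drawn at Day 40 and B2003 at Day 60. Dose and days thus differ along with the series, and their parts were not tested. With the series as a covariate, in a fit that took every sample as a replicate, 3 of 5 were called. That fit differs from the main one in more than the series. With the 20 animals of series A controls 2 of 5 were called.

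Compared directly, the medium window exceeded the early window for FCRL1, by 0.60 (SE 0.10, n = 28 animals), and for FCRLA, by 0.73 (SE 0.095, n = 28 animals, edgeR, adjusted p = 7.14e-06 and 2.66e-07). That is 2 of 5 members called higher, against 1.61% of genes. FCRL2, FCRL5 and FCRL3 were higher by 0.51, 0.49 and 0.22, under the fold limit. Within series C alone (8 animals) 0 of 5 were called (background 2.93%), with 0.50 for FCRLA and 0.26 for FCRL1, and FCRL3 turned to -0.09. These animals were all HD. For B2002, B2006, B2502 and B2508 the only early sample of series C was that of Day 21, so the series is not the only difference from the main comparison.

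In the late window the members reached their lowest levels. FCRL1 had a median of 92.7 CPM in the control of the 14 animals concerned and 10.2, 32.8 and 72.3 CPM in the late window (lowest, median and highest). FCRLA had a control median of 43.9 CPM and late levels of 3.08, 11.8 and 25.97 CPM. FCRL5 had 75.5 CPM in the control and 13.1, 20.7 and 34.7 CPM afterwards. FCRL2 went from a median of 23.5 CPM to 2.98, 6.05 and 12.4 CPM, and FCRL3 from 19.2 CPM to 1.92, 4.88 and 10.4 CPM. For each of the 5 members 14 of 14 animals were lower, while the ranges of the windows still overlap between animals. The log2 fold changes were nearly the same, at -1.94 (SE 0.14, n = 14 animals) for FCRLA, -1.78 (SE 0.15) for FCRL1 and -1.77 (SE 0.17) for FCRL3. FCRL2 had -1.76 (SE 0.17) and FCRL5 -1.75 (SE 0.13). These values correspond to 26.01% (FCRLA) to 29.7% (FCRL5) of the control (edgeR, adjusted p = 2.88e-08 to 7.95e-07).

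With 5 of 5 members called lower, the late window has to be read against a background of 18.5% of genes called lower. The median of all tested genes was -0.13 in this comparison under upper quartile scaling, and relative to it the members had -1.63 (FCRL5) to -1.82 (FCRLA). Of the genes called, 42.96% were higher under upper quartile scaling, 54.6% under TMM and 57.7% under DESeq2, and 5 of 5 members were called lower under each. Fewer than 3 animals had a control and late samples in the same series, so late and control could not be compared within a series. With the series as a covariate, in a fit that took every sample as a replicate, 5 of 5 were called again. The values there were -1.83 (FCRL2) to -2.17 (FCRLA). Against the medium window of the same 16 animals the log2 fold changes were -1.17 (FCRL5) to -1.69 (FCRL1), with 5 of 5 called (background 12.6%). In series C alone these values were -1.21 (FCRL5) to -1.64 (FCRL1), with 5 of 5 called again. Against the early window they were -0.63 (FCRL5) to -1.14 (FCRL3), with 5 of 5 called (background 20.2%), although DESeq2 called 3 of 5 and TMM scaling 4 of 5. The early, medium and late comparisons share the same control samples.

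Dose was compared because the study used a pair of dose groups. At Day -2 the medians were already different, a difference before irradiation that was not tested. They were 64.1 CPM in LD and 96.8 CPM in HD for FCRL5, and 36.1 and 47.6 CPM for FCRLA. In the early window no difference between the doses was detectable in the changes from control. The HD change minus the LD change was -0.02 for FCRLA (95% interval -0.392 to 0.358) and 0.13 for FCRL1 (-0.276 to 0.543). It was -0.12 for FCRL5 (-0.518 to 0.269), 0.10 for FCRL2 (-0.289 to 0.483) and 0.07 for FCRL3 (-0.254 to 0.387). edgeR called 0 genes of the whole table (background 0%), with 5.53% of genes at an unadjusted p under 0.05, and DESeq2 called 0. In the medium window as a whole 0 of 5 members were called (background 0.465% lower), with differences of -0.17 (FCRLA, FCRL5) to -0.33 (FCRL1) and edgeR adjusted p of 0.148 to 0.657.

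At Day 60 the dose groups differed. This comparison was chosen after the values were seen and run on every day with 3 or more animals of each dose. In the 12 LD animals FCRL3 had a lowest, median and highest level of 8.55, 17.5 and 26.3 CPM in the control and 6.48, 14.3 and 24.5 CPM at Day 60, with 8 animals lower. In the 9 HD animals with a control it had 9.61, 19.3 and 33.5 CPM and then 2.55, 6.87 and 23.5 CPM, with 9 of 9 lower, although the dose groups overlap at Day 60. FCRLA went from a median of 36.1 to 31.1 CPM in LD, with 7 of 12 lower, and from 63.2 to 16.1 CPM in HD, with 8 of 9 lower. FCRL1 had medians of 90.4 and 99.8 CPM in LD, with 4 of 12 lower, and of 96.9 and 40.04 CPM in HD, with 7 of 9 lower. The HD change minus the LD change was -1.28 for FCRL3 (95% interval -1.76 to -0.794), -1.30 for FCRL1 (-1.97 to -0.633), -1.25 for FCRLA (-1.95 to -0.545) and -1.03 for FCRL2 (-1.70 to -0.366). These 4 of 5 members were called (edgeR, adjusted p = 0.00035, 0.00428, 0.00821 and 0.0189), against 12.6% of genes called lower. FCRL5 had -0.76 (-1.36 to -0.160) and did not pass (edgeR, adjusted p = 0.0508). TMM scaling and DESeq2 each called 4 of 5 too, although genes called higher made up 59.9% and 60.2% of calls there against 45.4% under upper quartile scaling. Without the replicate block 1 of 5 was called. All 9 HD samples of that day were in series C, and with series A controls and series C samples alone (15 animals) 4 of 5 were called (background 16.9%). Of these HD animals B2002, B2003, B2505 and B2508 were last drawn at Day 60, B2004 at Day 71 and B2501 at Day 77. No LD animal was last drawn before Day 102. The part of nearness to the last draw in this difference was not tested.

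Within each dose group at Day 60, 5 of 5 members were called lower in HD (background 11.2%), with -1.17 (FCRL1) to -1.46 (FCRL3), and 1 of 5 in LD (background 1.35%), FCRL5 with -0.63 (SE 0.14). The other 4 had -0.20 (FCRL2) to 0.14 (FCRL1) in LD. Other genes moved with this difference. The summed pan-B level went from a median of 1731 to 476.3 CPM in HD and from 1137 to 1016 CPM in LD, 6 of 8 pan-B markers were called lower in HD than in LD with a median of -1.11, and 6 of 7 neutrophil and 5 of 8 monocyte genes were called higher, with medians of 2.11 and 1.36. Their part in the members' difference was not tested. On the other days tested, from Day 3 to Day 40 and at Day 90, 0 of 5 members were called. At Day 90 the differences were -0.65 (FCRL3) to -1.54 (FCRL1) with 3 HD animals (edgeR, adjusted p = 0.531 to 0.621, 0 genes called, with 9.18% of genes at an unadjusted p under 0.05, and 0 called by DESeq2). From Day 120 on 1 HD animal with a control remained on each day, so the doses could not be compared there.

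Sex and length of follow-up were compared in the same way. The change in females minus that in males was between -0.03 and 0.20 for the 5 members, and 0 genes were called (background 0%, 0.894% of genes at an unadjusted p under 0.05 in edgeR, 0 called by DESeq2). The labels give no survival, so the day of the last draw was used. Within LD, 5 animals last drawn at Day 270 were set against 7 with an earlier last draw, on the level in the early window. The difference was -0.50 for FCRL3 (95% interval -1.08 to 0.0859), 0.37 for FCRLA (-0.426 to 1.17) and 0.32 for FCRL1 (-0.631 to 1.26), longer minus shorter follow-up. Within HD, 5 animals with a last draw at Day 90 or later were set against 11, and the differences of the 5 members ran from -0.01 to 0.25. In both dose groups edgeR called 0 genes (background 0%, 3.69% and 1.51% of genes at an unadjusted p under 0.05), and DESeq2 called 7 and 0 genes, none of them a member.

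Animals with a high control level of a member tended to have a high level later. Over 24 animals the log2 level of FCRL3 in the early window followed that in the control with Pearson's r = 0.79 (permutation test, p = 2e-05, adjusted p = 2.86e-05 over 10 relations) and Spearman's rho = 0.75 (permutation test, p = 5e-05, adjusted p = 0.00015). Without the 2 animals farthest from the median control level r was 0.81. FCRL1 had r = 0.73 and rho = 0.54 (permutation tests, p = 4e-05 and 0.00834, adjusted p = 5e-05 and 0.00834), and r = 0.53 without those 2 animals. The weakest relation by r was that of FCRL5 in the medium window, with r = 0.67 and rho = 0.56 (permutation tests, p = 0.00044 and 0.00525, adjusted p = 0.00044 and 0.00583). The other 7 relations had r from 0.69 to 0.85 and rho from 0.60 to 0.81, and all 10 passed. With the 20 animals whose control was in series A, r ran from 0.70 to 0.84. Between animals lay 61.5% to 68.5% of the variation of the members' log2 levels among early samples and 53.5% to 60.4% among medium samples.

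**Figure D4:**
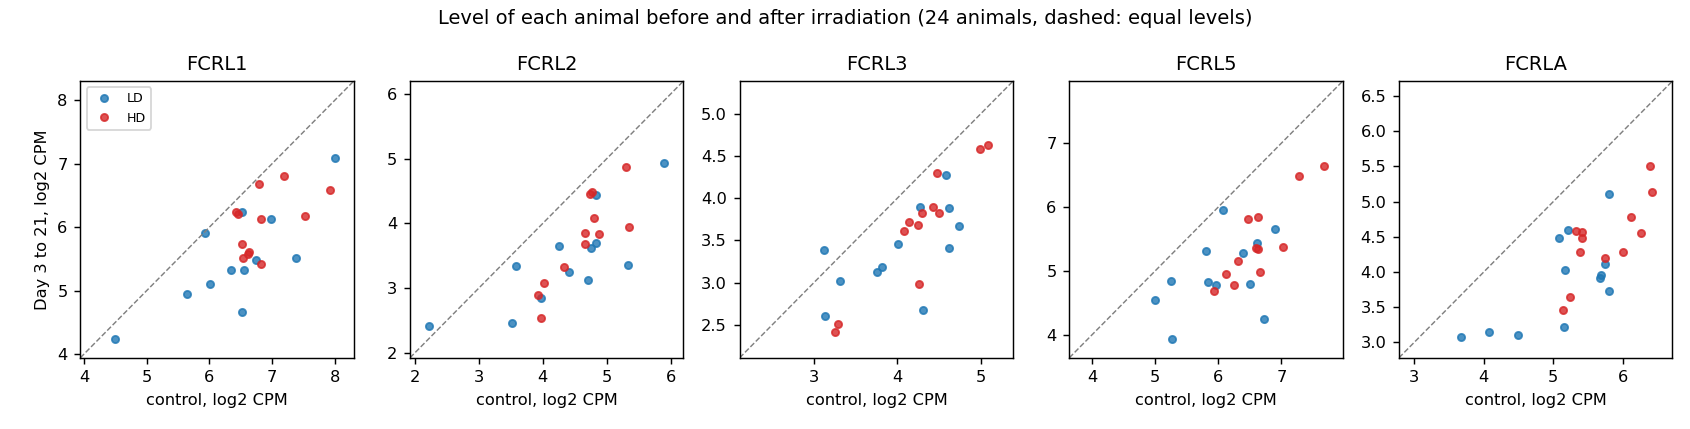
Log2 CPM of each of the 5 tested members in the early window against that in the control of the same animal, with 1 point per animal (24 animals, LD blue and HD red) and the line of equal levels. Most points lie below the line of equal levels and rise from left to right, with r between 0.69 and 0.79.

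Across all samples, with each animal's mean taken off, the members moved alike. This is a description over samples that share animals, depth and cell composition. The Pearson correlations of log2 CPM between members ran from 0.77 (FCRLA with FCRL3) to 0.91 (FCRL1 with FCRL2). Among all 13750 other tested genes, FCRL1 was most like PAX5 (r = 0.96), the transcription factor that sets B cell identity, followed by XKRX (0.95) and CD22 (0.95). FCRL2 was most like BLK (0.91), a B cell kinase, FCRL1 (0.91) and PAX5 (0.90). FCRL3 was most like MS4A1 (0.88), TCF4 (0.87) and XKRX (0.86). FCRL5 and FCRLA both had CLEC17A and CD22 among their closest genes. The values were 0.92 and 0.91 for FCRL5, which was followed by OSBPL10 (0.89). They were 0.88 and 0.89 for FCRLA, which also followed BLNK (0.88), an adaptor of the B cell receptor.

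Genes around the family were taken from lists. Of all tested genes 1.75% were called lower in the early, 1.27% in the medium and 18.5% in the late window. Of the 8 pan-B markers 8 fell in the early window, with a median of -0.995 against -0.02 over all genes. They included CD22 with -1.12 (SE 0.10) and the receptor chains CD79A with -1.11 (SE 0.10) and CD79B with -0.92 (SE 0.094). MS4A1 had -0.65 (SE 0.13). In the medium window 5 of 8 were called lower and in the late window 8 of 8, with medians of -0.62 and -2.04. The late values were -2.52 (SE 0.17) for CD79B and -2.19 (SE 0.16) for CD22.

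Genes that share the members' signalling role changed less uniformly. Of all tested genes 5.79% were called higher in the early, 4.48% in the medium and 14% in the late window. The shares called lower were 1.75%, 1.27% and 18.5%, as given above. Of 15 inhibitory receptors and ITIM effectors 3 fell early, among them CD22 and CD72, an inhibitory B cell lectin, with -0.95 (SE 0.081). The median of that list was -0.26. Late after irradiation 4 of 15 rose and 4 fell, with a median of -0.16, and the largest rise was that of DOK3, an inhibitory adaptor, with 1.11 (SE 0.17). Of 16 genes of the activating chain 4 fell early, 4 in the medium and 6 in the late window. The classical Fc receptors went both ways. FCGR1A, the high affinity IgG receptor of myeloid cells, rose by 1.37 (SE 0.14) early and by 1.29 (SE 0.19) in the medium window, and was the 1 of 13 called higher early, while PIGR, the receptor that carries IgA across epithelia, was the 1 called lower, with -0.60 (SE 0.13). MS4A2, a chain of the IgE receptor, was the 1 called lower in the medium window, with -0.61 (SE 0.15), where 2 were higher. By the late window 6 of 13 were higher and 5 lower, with FCAR, the myeloid IgA receptor, at 1.64 (SE 0.48) and MS4A2 at -1.87 (SE 0.47).

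Lists of B cell stages and survival factors completed the comparison. Their counts stand against the same shares of all tested genes, with 18.5% called lower and 14% higher in the late window. Of 9 naive B genes 2 fell early, with CXCR5 at -0.66 (SE 0.10) and TCL1A at -0.63 (SE 0.15), and 7 fell late, with TCL1A at -1.90 (SE 0.21), while 1 rose. Of 10 memory and atypical B genes 1 fell early, TNFRSF13B, a receptor for the survival factors BAFF and APRIL, with -0.94 (SE 0.063), and 3 fell and 3 rose late, with TNFRSF13B at -1.41 (SE 0.19) and AIM2, a DNA sensor, at 0.99 (SE 0.22). Of 7 survival receptors and ligands 3 fell and 2 rose early. TNFRSF13C, the BAFF receptor, had -1.03 (SE 0.12), while TNFSF13, which encodes APRIL and is made by myeloid cells, had 0.74 (SE 0.068) early, 0.80 (SE 0.11) in the medium window as the 1 gene called there, and 1.22 (SE 0.13) late. CD40, the receptor for T cell help, had -1.78 (SE 0.15) late, when 4 of the 7 fell and 2 rose. Of 7 germinal centre genes 1 rose early, MYBL1 with 0.59 (SE 0.14), and of 8 plasma cell genes 1 rose early, JCHAIN, the joining chain of IgA and IgM, with 0.71 (SE 0.17). Among the late samples 2 germinal centre genes rose and 1 fell, with BCL6, a gene also expressed in neutrophils, at 1.61 (SE 0.26) and ELL3 at -0.61 (SE 0.13), and 3 plasma cell genes fell, with MZB1 at -0.93 (SE 0.13).

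Other blood cells were checked with their markers. Of 7 T cell, 6 regulatory T and 8 NK genes 0 were called in the early and medium windows. In the late window 5, 3 and 1 of them fell, with CD5 at -1.17 (SE 0.24), IKZF2 at -0.84 (SE 0.14) and GZMB at -0.89 (SE 0.15). In that window 18.5% of all tested genes were called lower, a share that the 1 of 8 NK genes does not exceed. Monocyte genes rose in 3, 3 and 5 of 8 cases over the 3 windows, and neutrophil genes in 1, 3 and 6 of 7, with S100A8 at 0.75 (SE 0.23) early. The largest late rise among the monocyte genes was that of CD163, a scavenger receptor, with 1.62 (SE 0.31), and among the neutrophil genes that of MMP9, a protease of neutrophil granules, with 2.25 (SE 0.33). All 8 erythroid genes rose early, with HBA at 2.66 (SE 0.16) and HBB at 2.52 (SE 0.22), and 6 of 8 in the medium window, while late SLC4A1 rose with 1.18 (SE 0.41) and HBB fell with -1.46 (SE 0.57). Platelet genes rose in 3 of 6 cases early, 0 in the medium and 6 late, with PPBP at 0.85 (SE 0.10) and 1.12 (SE 0.18). The parts of these cells in the members' values were not tested.

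**Figure D5:**
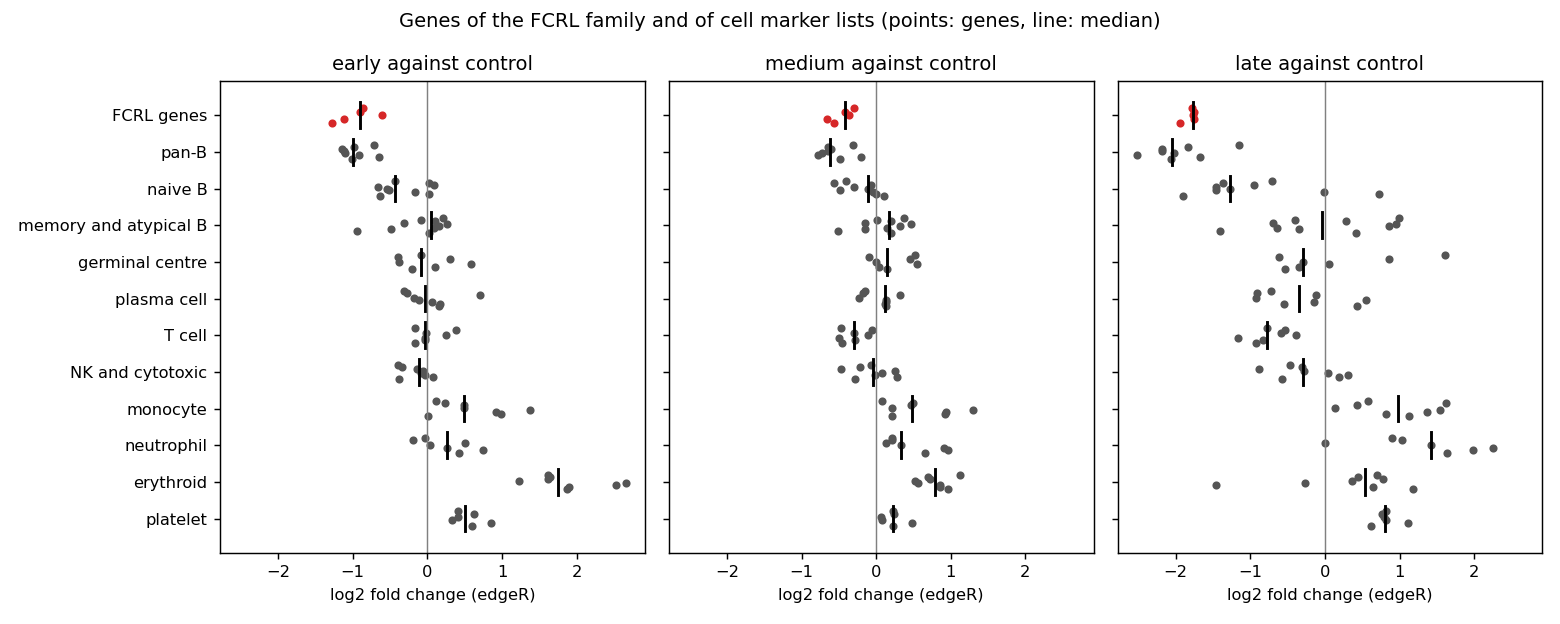
Log2 fold change against control of the tested genes of each list in the early, medium and late windows, with points for genes and a line at the median. By their medians the members and the pan-B markers lie furthest to the left in the early and late windows, and the erythroid list furthest to the right in the early window.

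FCRLB stayed near the limit of detection. At least 3 counts were found in 148 samples (48.7%), 64 samples had 0 counts and the highest count was 23. Pooled over the samples of a window its level was 0.402 CPM (95% Poisson interval 0.332 to 0.483) in the control, 0.298 CPM (95% Poisson interval 0.271 to 0.326) in the early, 0.414 CPM (95% Poisson interval 0.367 to 0.466) in the medium and 0.385 CPM (95% Poisson interval 0.323 to 0.456) in the late window, intervals that cover counting error only. Of 24 animals 11 were lower and 13 higher in the early window than in their control. The pooled early level lay below the control interval while most animals were higher, so no direction is read at this depth.

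The 6 animals followed to Day 270 (5 LD, 1 HD) did not end at the same level. FCRL1 in B1003 was 90.4 CPM at Day -2, 15.8 at Day 240 and 90.9 at Day 270. B1004 went from 254 CPM at Day -2 to 36.2 at Day 240 and 105.4 at Day 270. In the other 4 animals FCRL1 at Day 270 was 21.4 (B1502), 1.95 (B1503), 17.2 (B1505) and 10.3 CPM (B2502), against 60.2, 80.8, 49.3 and 144.1 CPM in their controls. So 2 animals lay far above the other 4 at Day 270, and B1503 lay below all. FCRL5 was also highest in these 2 animals but by a smaller gap, with 32.5 CPM in B1003 and 24.8 CPM in B1004 against 5.84 to 20.1 CPM in the other 4. The summed pan-B level at Day 270 was 968 and 738 CPM in B1003 and B1004 and 61.7 to 316 CPM in the others.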

How the data were processed

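Whole blood RNA of 28 irradiated rhesus macaques had been sequenced at Day -2 and up to Day 270. According to the methods and the submitters' processing notes, the authors trimmed the reads with cutadapt 2.10, aligned them to Mmul_10 with STAR 2.7.6a and counted them per RefSeq gene with Subread 2.0.1, and these raw counts were deposited. The authors also deposited log2 values for 16730 genes, made with upper quartile scaling and conditional quantile normalization, which were used here as an alternative only. The low-count rule of the methods keeps 13751 genes of the deposited counts, fewer than that table holds.

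Counts were summed per animal and window. Genes with 3 or more counts in 80% of samples were fitted with edgeR 4.0.16 (R 4.3.3) by the quasi-likelihood test, with upper quartile scaling and the animal as a replicate block, and p-values were adjusted by Benjamini-Hochberg over 13751 genes. Standard errors were the log2 fold change divided by the root of the F statistic, and 95% intervals used the fit's degrees of freedom. The fold limit was 1.5 and the p limit 0.05. Pairing came from the animal names in the labels, and log2 levels of control and early samples of the same animal correlated at r = 0.69 to 0.79. Because some p-values rest on single blood draws of an animal, they measure the spread between animals and draws together. Log2 CPM used a prior count of 2. CPM of windows were scaled over the sums and CPM of single days over the single samples, so control levels differ slightly between them. Permutation tests drew 100000 resamples, all two-sided, with sign changes of the paired difference for the markers and the levels at Day -2. Simulated data with 200 genes changed by a fold of 3 gave back 200 of 200 with 1 false call for the early comparison, and 157 of 200 with 6 false calls for Day 270. Alternatives were TMM scaling, DESeq2 1.42.0, limma 3.58.1 on the deposited log2 values, no filter, no block, single samples in place of sums, library series as a covariate or alone, and each animal left out. The fits with the series as a covariate also took single samples in place of sums. Dose differences on single days and in the medium window were added after seeing the data.

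The genes given with values were the members, pan-B markers, the 2 strongest called genes of each other list (1 in each direction where both exist) and the 3 genes most like each member. Members and lists were chosen with earlier results of these data known. Some genes that this rule names are not reported here, and list genes without a row in the table used were not analysed here. The 4 HD animals without a control enter the levels but not the comparisons with control. No pair of samples had identical counts.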

Additional observations from a re-analysis of the deposited data

Results flagged for a closer look

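Within each dose and day with 4 to 10 samples, a member's highest or lowest sample was set apart when its gap to the nearest sample exceeded Dixon's 95% limit. Of 36 groups of values examined 6 were set apart. Dixon's limit assumes normally distributed values, while CPM were used here. The members also move alike across samples, so no rate by chance is set beside this count. Animal B2506 at Day 90 (HD) had 245.2 CPM of FCRL1 against 24.97 to 68.8 CPM in the other 4 animals, and 32.4 CPM of FCRL2 against 7.16 to 9.88 CPM. Its summed pan-B level was 1526 CPM, against 269 to 827 CPM in the others. Animal B1003 at Day 150 (LD) had 63.2 CPM of FCRL1 against 9.16 to 23.5 CPM in the other 7 animals, and 24.9 CPM of FCRL2 against 0 to 7.31 CPM, with a summed pan-B level of 613 CPM against at most 344 CPM. Animal B2502 at Day 90 (HD) had 20.3 CPM of FCRL3 against 3.36 to 6.51 CPM, and its summed pan-B level of 618 CPM lay within the range of the others (269 to 1526 CPM). Animal B1501 at Day 150 (LD) had 0.415 CPM of FCRLB against 0 to 0.169 CPM, values that rest on very few counts. Their causes were not tested.

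The change from control to Day 60 differed between the dose groups, by the test of the difference itself, a comparison chosen after the values were seen. The HD change minus the LD change was -1.25 for FCRLA, -1.30 for FCRL1, -1.03 for FCRL2 and -1.28 for FCRL3 on the log2 scale, over 12 LD and 9 HD animals (edgeR, adjusted p = 0.00821, 0.00428, 0.0189 and 0.00035). These members were called, against 12.6% of all tested genes called lower. FCRL5 had -0.76 and did not pass (edgeR, adjusted p = 0.0508). The 8 pan-B markers moved with this difference between the doses, with a median of -1.11. The HD animals B2002, B2003, B2505 and B2508 were last drawn on that day, while no LD animal was last drawn before Day 102. The cause of the difference was not tested.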

How the results depend on the processing

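Depth is lower in the medium and late windows, and most of their controls come from another library series, so a change of series between control and window remains part of those values. FCRLB cannot be compared at this depth. At Days 180 to 270 the tests rest on 6 animals. Among the members' log2 fold changes all but 3 kept their direction and side of the limits under TMM scaling, and all but 9 with DESeq2, which changes the test and the scaling together. Against control the late counts were 5 of 5 under every alternative that could be run, and 3 of 3 windows kept their member counts without the filter. Late against control and late against early could not be fitted within a series, for want of animals. With DESeq2 the share of higher genes among those called moved from 58.8% to 72.2% at Day 40, from 54.6% to 67.6% at Day 60, from 47.2% to 58.5% at Day 180, from 43.1% to 57.9% at Day 210, from 48.2% to 58.3% at Day 240, from 37.3% to 54.5% in late against early and from 42.7% to 66.3% in late against medium, and under TMM scaling it moved from 52.4% to 62.65% at Day 6.

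The early comparison in series C alone called 15.9% of tested genes in place of 7.53%. Leaving out each animal gave 4 to 5 members in the early window and 1 to 2 in the medium window (2 without B1503 or without B2003, with FCRLA at -0.61 and -0.60). At Day 240 it gave 4 to 5 members and 1.59% to 7.28% of genes, with the lowest share without B1503. At Day 270 it gave 0 to 5 members and 0% to 9.82% of genes, with the highest values without B1003. In the medium window the member count was 0 in the series of the control only. It was 3 with the series as a covariate and every sample as a replicate, and 2 with limma on the deposited log2 values. It was also 2 with animals of series A controls only. That choice was made after seeing the data, like series A and series C alone in the early window. DESeq2 called 15.9% of genes at Day 240 in place of 6.76%, 5 members and 17% of genes at Day 270 in place of 0 members and 0.00727%, 3 members in late against early in place of 5, and 0.0509% of genes for the follow-up within LD in place of 0%. Medium against early in series C alone called 0 members, and FCRL3 turned to -0.087, in HD animals of which some had Day 21 as their only early sample.

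The animal is the replicate block. With no replicate block the counts at Day 60 and Day 90 were 2 and 2 members in place of 4 and 4, the dose difference of FCRLA turned to 0.0024 and the sex difference of FCRL2 to 0.046, the dose difference at Day 60 called 1 member in place of 4, and the block changed no other member count. Of the daily dose differences, all chosen after seeing the data, without the block that of FCRL5 turned to 0.10 at Day 3, 0.010 at Day 6 and 0.012 at Day 9, that of FCRL1 to 0.0092 at Day 6, and that of FCRL2 to 0.10 at Day 6 and 0.095 at Day 21. At Day 21 TMM scaling turned FCRL2 to 0.011 and FCRL3 to 0.022, and DESeq2 FCRL3 to 0.019. The share of genes called for the dose difference was 0.276% under TMM scaling and 2.17% with DESeq2 in place of 0.0364% at Day 40, 0.00727% with DESeq2 in place of 0% at Days 3 and 15, and 0% without the block in place of 3.24% in the medium window and 0.0364% at Day 40. Day 60 against control, also split after seeing the data, called 1 member within LD in place of 4, with FCRL1 at 0.14, and 21.5% of genes within HD, over 1.5 times the share for both doses together.

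Against MS4A1 alone the differences were, in the early window, -0.23 for FCRL1, -0.26 for FCRL2 and 0.021 for FCRL3. In the medium window they were -0.36 for FCRLA, -0.094 for FCRL1, -0.21 for FCRL2, -0.16 for FCRL3 and -0.45 for FCRL5. In the late window they were -0.25 for FCRLA, -0.094 for FCRL1, -0.060 for FCRL2, -0.099 for FCRL3 and -0.067 for FCRL5. With a reference without CD79A, CD79B and CD22, chosen after seeing the data, FCRL2 had -0.0030 early, FCRL3 0.082 and FCRL5 -0.20 in the medium window, and FCRLA -0.15 and FCRL1 0.0054 late. With animals of series A controls only, FCRL5 had -0.15 early, and FCRLA -0.0046 and FCRL1 0.17 late. The cause of these changes was not tested.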

Other observations

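Further FCRL genes of the table, which are no members of the group described above, did not all move with it. FCRL6, known from cytotoxic T and NK cells, lies at chr1:91126664-91144567 and passed the filter. Its log2 fold change was -0.28 (SE 0.088) in the early window (edgeR, adjusted p = 0.00886), 0.30 (SE 0.10) in the medium window (edgeR, adjusted p = 0.0168) and 0.25 (SE 0.30) in the late window (edgeR, adjusted p = 0.495), all under the fold limit. FCRL4, a receptor of memory B cells in tissues, did not pass the filter. Pooled over samples its level was 1.17 CPM in the control, 0.592 CPM in the early, 0.778 CPM in the medium and 0.353 CPM in the late window, with 95% Poisson intervals of 1.05 to 1.30, 0.554 to 0.631, 0.713 to 0.848 and 0.294 to 0.422 CPM that cover counting error only. FCRL6 and FCRL4 were chosen for their names, after the values of the other FCRL genes were known.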
